A study of Mus musculus with 64 samples.

Results

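The chemerin system was measured here as 4 genes of mouse adipose tissue: the ligand Rarres2 (chemerin), the signalling receptors Cmklr1 and Gpr1, and the binding receptor Ccrl2. The symbols were looked up in the count table of every library, and all 4 were found among its 24328 gene rows. The set was selected on measured values of these same libraries, since the lower Cmklr1 level on the drug rosiglitazone was known when it was drawn up. For that reason, the rosiglitazone values of the 4 genes are given as a description with no test, and tests are given for diet, strain and depot. Several of these tests share HFD control libraries with the rosiglitazone contrasts, so they are not fully independent of the choice.

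Chemerin is secreted, in large part by fat and liver, as an inactive precursor, and proteases that trim its C-terminal end turn it into a chemoattractant and adipokine. CMKLR1 is its main receptor, coupled to inhibitory G proteins and found on macrophages, dendritic cells and adipocytes. GPR1 also binds and signals for chemerin, while CCRL2 binds it without signalling and holds it at the cell surface. In cultured mouse preadipocytes, loss of the ligand or of CMKLR1 impairs adipocyte differentiation.

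RNA was sequenced in 64 libraries of 15 groups. In inguinal fat (iWAT, subcutaneous), the groups were C57BL/6J (B6) on a high-fat diet (HFD) with rosiglitazone (rosi, an agonist of the nuclear receptor PPAR gamma), B6 HFD control and B6 low-fat diet (LFD) control; 129S1/SvlmJ (129) HFD with rosiglitazone and 129 HFD control, each of 4 libraries; and the B6/129S1 F1 hybrid (F1) on LFD with rosiglitazone and F1 LFD control, each of 5. In epididymal fat (eWAT, visceral), they were B6 HFD with rosiglitazone, B6 HFD control, B6 LFD control, 129 HFD control and 129 LFD control, each of 4 libraries, and a further pair of B6 HFD and B6 LFD groups, each of 5, whose labels name no agent. That pair is called the first set here, and B6 HFD control with B6 LFD control the second set. Brown fat (BAT) of B6 on HFD had 4 libraries. Dose, length of treatment, age and sex are not given in the sources used here. The labels do not say whether the libraries of a group came from separate animals. The tests therefore rest on the variation among libraries, which may be technical. F1 mice were on LFD and the other rosiglitazone groups on HFD, so hybrid background and diet cannot be told apart where F1 is set against another strain.

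Libraries held 3099737 to 9551251 counts in genes. At these depths Rarres2 had 149 to 2140 counts and Cmklr1 30 to 1935 in any library, while Ccrl2 had 2 to 112 and Gpr1 1 to 55, so that values of both low genes carry a large counting error. The depot labels matched their markers: 8 mesothelial markers summed to 96.4 to 679 CPM (read counts relative to library size, with sizes scaled by TMM) in eWAT, against 2.99 to 31.0 CPM in iWAT and BAT, and 8 brown adipocyte markers summed to 9224 to 11470 CPM in BAT. Skeletal muscle markers summed to at most 177.9 CPM in B6 iWAT HFD controls, against 4279 to 45331 CPM in B6 iWAT LFD controls, and reached 23476 CPM in a 129 iWAT HFD control. CPM are not divided by gene length, so levels are compared between groups for 1 gene at a time and never between genes.

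The promoters of the receptor that was lower on rosiglitazone and of the receptor that was higher on HFD are shown so that both can be read beside their opposite behaviour in B6 eWAT. Each runs from 250 bases before to 50 bases after an annotated start, as in RefSeq for GRCm38.p6, 5′ to 3′ on the strand of the gene. The Cmklr1 window lies at chr5:113643554-113643853 (minus strand) and is the single entry of that gene, and the Ccrl2 window lies at chr9:111057469-111057768 (minus strand), the first of 3 entries.
Cmklr1 promoter: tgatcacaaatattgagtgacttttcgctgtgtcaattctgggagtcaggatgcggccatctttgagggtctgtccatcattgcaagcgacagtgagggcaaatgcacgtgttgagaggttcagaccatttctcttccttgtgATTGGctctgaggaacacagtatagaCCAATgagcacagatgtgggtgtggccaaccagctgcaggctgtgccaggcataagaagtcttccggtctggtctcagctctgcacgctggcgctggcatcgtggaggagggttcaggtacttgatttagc
Ccrl2 promoter: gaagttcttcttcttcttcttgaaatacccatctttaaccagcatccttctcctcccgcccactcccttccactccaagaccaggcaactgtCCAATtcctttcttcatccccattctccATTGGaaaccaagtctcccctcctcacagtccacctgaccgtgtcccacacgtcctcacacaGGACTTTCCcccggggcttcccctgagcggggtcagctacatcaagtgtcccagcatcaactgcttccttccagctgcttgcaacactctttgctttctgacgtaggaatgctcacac
Capitals mark matches on either strand to any of 5 motifs, chosen after the sequences were seen: the CCAAT box, the nuclear receptor half-site AGGTCA, its direct repeat with a spacing of 1, the TATA box TATAAA, and the 9-letter kappa B sequence GGACTTTCC. Cmklr1 held CCAAT once on each strand and neither AGGTCA, the direct repeat, TATAAA nor GGACTTTCC in this window. Ccrl2 also held CCAAT once on each strand, and 1 copy of GGACTTTCC. Of its 3 entries, only the one shown held either, and the entries not shown held none of the 5 motifs. Of 32851 promoters of this length, 37.4% held CCAAT, 16.3% AGGTCA, 0.0396% the direct repeat, 13.6% TATAAA and 0.344% GGACTTTCC. These are letter matches in 300 bases. Gpr1 had 2 entries, of which 1 held CCAAT, 1 AGGTCA and 1 TATAAA, and Rarres2 had no entry.

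The first question was how Cmklr1, the main chemerin receptor, stood in fat of rosiglitazone-treated mice of each strain and depot. Cmklr1 was lower with rosiglitazone than in the matched control in all 4 contrasts, with no overlap between the groups in any of them. It was at 8.47% of the control mean in F1 iWAT, 46.3% in 129 iWAT, 32.9% in B6 iWAT and 62.6% in B6 eWAT. Because these contrasts chose the gene, nothing is read from that order by a test.

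In F1 iWAT, the 5 rosiglitazone libraries had 9.86, 16.8, 14.8, 15.4 and 8.55 CPM of Cmklr1, against 117, 149, 197, 128 and 183 CPM in the 5 control libraries. The highest treated library was far under the lowest control. The log2 fold change of Cmklr1 was -3.55 ± 0.19 (SE). In the same contrast, 37.8% of all genes tested passed an adjusted p of 0.05.

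In B6 iWAT, the rosiglitazone libraries had 68.3, 40.2, 58.9 and 33.6 CPM of Cmklr1, against 119, 188, 145 and 159.6 CPM in control libraries. The log2 fold change was -1.62 ± 0.22, in a contrast where 13.2% of all genes passed. In 129 iWAT, rosiglitazone libraries had 67.3, 72.3, 49.0 and 66.2 CPM, against 151, 131, 118 and 150.4 CPM in controls. The treated values were tight apart from replicate 3, and the log2 fold change was -1.12 ± 0.13, where 0.11% of all genes passed. In B6 eWAT, the rosiglitazone libraries had 74.7, 67.0, 94.5 and 58.2 CPM, against 123, 116, 125 and 106 CPM in controls. That was the smallest of the 4 differences, -0.59 ± 0.14 on the log2 scale. In this contrast, edgeR called 0 of 13213 genes (0%), with 624 at an unadjusted p under 0.05 and 30 called by DESeq2.

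Set side by side, the log2 response of Cmklr1 to rosiglitazone in 129 iWAT minus that in B6 iWAT was 0.47 ± 0.28. The response in F1 iWAT minus that in B6 iWAT was -1.93 ± 0.32, and these groups also differed in diet. They differed in read assignment too: reads in no gene feature were 66.8 to 70.6% and ambiguous reads 0.195 to 0.246% in the F1 libraries, against 29.3 to 39.6% and 0.849 to 0.98% in the B6 iWAT libraries of that contrast. The part of this in the difference was not tested. The response in B6 eWAT minus that in B6 iWAT was 0.99 ± 0.29. With each library left out in turn, these differences stayed between 0.31 and 0.67, -2.12 and -1.75, and 0.83 and 1.17, in the order given. The labels carry codes such as FGC1359_s_3, read here as sequencing run and lane, and a lane below stands for such a code. By that reading, each pair of treated and control groups was on a single lane, and the pairs were on different lanes. Among these pairs, only those of B6 iWAT and 129 iWAT shared a run code. Run, lane and pair cannot be told apart in these differences. Other groups said to be on different lanes may also differ in run.

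Markers of other cells moved with rosiglitazone in some of these contrasts. In bulk tissue, fewer cells of a type and less RNA per cell cannot be told apart. In F1 iWAT, 11 of 12 macrophage markers fell (summed level 174 to 345 CPM with rosiglitazone, 362 to 1288 CPM in control), and 5 of 10 adipocyte markers rose and 1 fell (32947 to 44920 against 20871 to 30637 CPM). In B6 iWAT, 7 of 10 endothelial markers fell (693 to 882 against 993 to 1266 CPM), 4 of 10 adipocyte markers rose, and 0 of 12 macrophage markers passed. Brown adipocyte markers rose in 7 of 7 tested in F1 iWAT (summed level 4396 ± 2181 CPM with rosiglitazone, 347 ± 135 CPM in control, SD, no overlap) and in 5 of 7 in B6 iWAT (110.3 to 282 against 30.9 to 78.9 CPM), and BAT itself had a Cmklr1 mean of 18.8 CPM. Fibroblast and progenitor markers fell in 7 of 10 in F1 iWAT (2311 to 3817 against 4050 to 7323 CPM) and in 1 of 10 in B6 iWAT. In 129 iWAT and B6 eWAT, where 0.11% and 0% of all genes passed, none of the markers of these 5 lists passed with edgeR. Summed adipocyte markers were nonetheless higher with rosiglitazone in 129 iWAT (40528 to 51944 against 31724 to 40328 CPM). So were brown adipocyte markers in B6 eWAT (36.2 to 58.2 against 13.7 to 27.5 CPM). The other sums of these lists overlapped in both contrasts. None of the adipocyte, macrophage, endothelial or fibroblast markers was at 0 in all libraries of a group. Zic1, a brown fat marker, was at 0 in both F1 groups and in the HFD controls of B6 iWAT and B6 eWAT. Summed plasmacytoid dendritic and natural killer cell markers were lower with rosiglitazone in F1 iWAT (123 to 155 against 193 to 227 CPM). They were also lower in B6 iWAT (168 to 174 against 215 to 257 CPM). Neutrophil and mast cell markers were lower without overlap in B6 iWAT alone (32.5 to 48.9 against 49.8 to 64.3 CPM). Both sums overlapped in 129 iWAT and B6 eWAT. The part of brown, fibroblast and these immune cells in the Cmklr1 responses was not tested.

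Scaled to the summed adipocyte markers of the same library, Cmklr1 with rosiglitazone was 0.0577 times its control in F1 iWAT, 0.347 times in 129 iWAT, 0.27 times in B6 iWAT and 0.463 times in B6 eWAT. Scaled to macrophage markers, the ratios were 0.206, 0.506, 0.36 and 0.844 in the same order, and scaled to endothelial markers 0.0747, 0.438, 0.463 and 0.594. Groups did not overlap on any of these scales in F1 and 129 iWAT. They overlapped in B6 eWAT on all 3, and in B6 iWAT on the endothelial scale alone. Several adipocyte markers are themselves known PPAR gamma targets. Beyond these ratios, the part of cell composition in the lower Cmklr1 level was not tested.

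**Figure D1:**
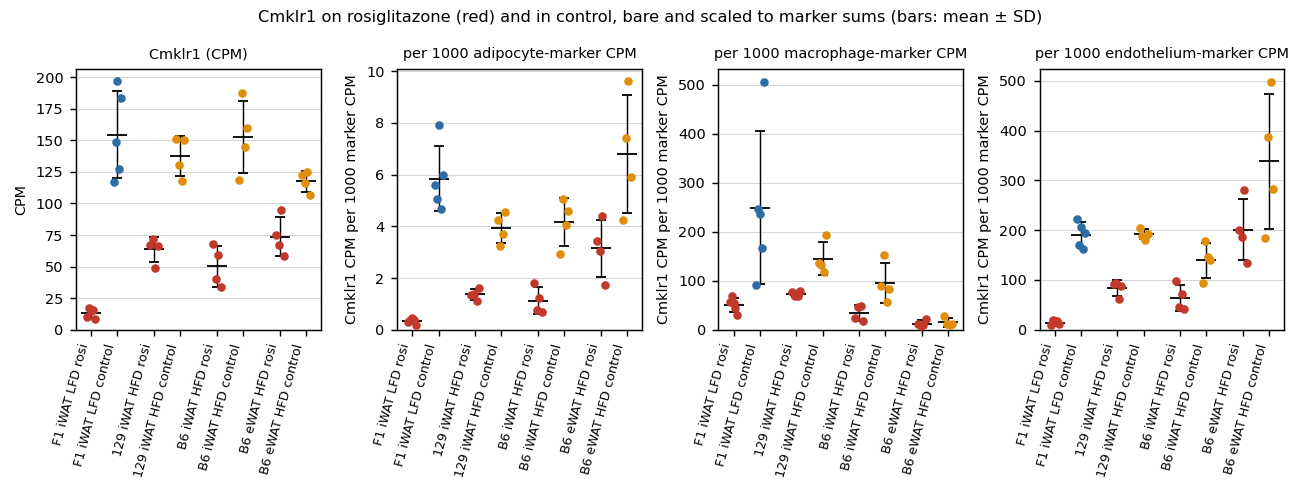
Cmklr1 in rosiglitazone libraries (red) and their controls (orange HFD, blue LFD), as CPM and per 1000 CPM of summed adipocyte, macrophage or endothelial markers, 1 point per library with mean and SD. On the CPM axis the F1 rosiglitazone libraries lie between 8.55 and 16.8 and their controls between 117 and 197, while in B6 eWAT the groups overlap once scaled.

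The other 3 genes showed smaller differences in CPM with rosiglitazone. Rarres2, the ligand, was lower in F1 iWAT, with 174, 272, 217, 236 and 217 CPM in rosiglitazone libraries against 295, 345, 308, 345 and 446 CPM in controls. These groups did not overlap, and the log2 fold change was -0.64 ± 0.13. In B6 iWAT, Rarres2 had 123, 132, 154 and 153 CPM with rosiglitazone against 192, 153, 209 and 212 CPM in control, a log2 fold change of -0.46 ± 0.12 with overlap at 1 control library. It was -0.19 ± 0.12 in 129 iWAT and -0.13 ± 0.37 in B6 eWAT. Relative to adipocyte markers, Rarres2 with rosiglitazone was 0.436 times its control in F1 iWAT, 0.659 in 129 iWAT, 0.582 in B6 iWAT and 0.68 in B6 eWAT, without overlap. Relative to macrophage markers the groups overlapped in every contrast. On the endothelial scale they were apart only in F1 iWAT, at 0.564 times. The part of cell composition in these values was not tested. Ccrl2, which binds chemerin without signalling, gave a log2 fold change of -0.03 ± 0.30 in B6 iWAT, -0.34 ± 0.29 in 129 iWAT and -0.15 ± 0.31 in B6 eWAT, and that of Gpr1 was 0.07 ± 0.33, -0.23 ± 0.27 and -0.44 ± 0.39 in the same tissues. The B6 eWAT value of Gpr1 was -0.92 without rosiglitazone replicate 4. In F1 iWAT, where counts were 2 to 17 for Ccrl2 and 2 to 12 for Gpr1, neither passed the filter on low counts. Scaled to adipocyte markers, Gpr1 in B6 eWAT was 0.459 times its control and Ccrl2 in 129 iWAT 0.599 times, both without overlap. Scaled to macrophage markers, Gpr1 in F1 iWAT was 4.19 times its control without overlap, from these low counts. All other scaled values of Ccrl2 and Gpr1 overlapped. The part of cell composition in these ratios was not tested.

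The wider pathway was read from lists drawn up with earlier results known: 17 proteases and peptidases that act on chemerin, 13 signalling genes downstream of the receptors, 15 related chemoattractant receptors and 9 transcription factors. In F1 iWAT, where 37.8% of all genes passed, rosiglitazone raised 1 and lowered 4 of 5 proteases tested, with a median log2 fold change of -1.68 against -0.03 over all genes tested. Ctsl, a lysosomal cysteine protease, was at 155 ± 18.5 CPM with rosiglitazone and 400.3 ± 57.2 CPM in control, and Ctsk, cathepsin K, at 10.9 ± 3.08 and 35.8 ± 6.27 CPM (SD, n = 5 each; edgeR adjusted p 2.7e-06 and 1.9e-05). Cpn2, a subunit of the carboxypeptidase N that trims active chemerin, was higher, at 10.9 ± 8.18 against 3.16 ± 1.74 CPM (edgeR adjusted p 0.039). Among signalling genes, 1 of 13 rose and 7 fell. Gnao1, a G protein subunit, averaged 75 ± 28.5 CPM with rosiglitazone and 14.3 ± 3.64 CPM in control, while Gnai2, an inhibitory G protein subunit, averaged 94.8 ± 4.99 and 135 ± 12.1 CPM. In B6 iWAT, where 13.2% of all genes passed, Gnao1 and Gnai1 were the 2 of 13 signalling genes that rose, and none of the 6 proteases, 10 related receptors and 8 transcription factors tested passed. In 129 iWAT and B6 eWAT, where 0.11% and 0% of all genes passed, none of the listed genes passed with edgeR. As given above, 11 of 12 macrophage markers fell in F1 iWAT. The part of cell composition in the pathway values was not tested.

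The second question was what HFD does to the same genes, a contrast that the choice of the set did not use. The HFD controls of B6 iWAT and of the second eWAT set are, however, also the controls of rosiglitazone contrasts. The first eWAT set shares no library with them. In B6 eWAT, HFD lowered Cmklr1 and raised Ccrl2, in both sets of libraries. In 129 eWAT and in B6 iWAT, no member passed the test. Cmklr1 and Ccrl2 also differed between the strains in their response to HFD.

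In the first set of B6 eWAT, Cmklr1 had 75.2, 112, 106, 94.0 and 77.5 CPM on HFD, against 183, 162, 143, 174 and 166 CPM on LFD. All 5 HFD libraries lay under all 5 LFD libraries, and the log2 fold change was -0.84 ± 0.12 (edgeR adjusted p 6.0e-05). In the second set, it had 123, 116, 125 and 106 CPM on HFD, against 231, 177, 197 and 271 CPM on LFD, again with no overlap (log2 fold change -1.04 ± 0.16, edgeR adjusted p 0.00082). In 129 eWAT, it had 191, 163, 168 and 206 CPM on HFD against 179.9, 190.0, 180.2 and 179 CPM on LFD, a log2 fold change of -0.03 ± 0.08 (edgeR adjusted p 0.86). The diet response in 129 minus that in B6, from the second set, was 0.98 ± 0.17 on the log2 scale (edgeR adjusted p 0.00047), in a test that called 40.2% of all genes. In B6 iWAT, Cmklr1 averaged 153 ± 28.7 CPM on HFD and 184 ± 37.5 CPM on LFD (log2 fold change -0.27 ± 0.16, edgeR adjusted p 0.26).

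Ccrl2, the non-signalling receptor, went the other way. In the first set it had 17.3, 14.3, 13.2, 18.2 and 18 CPM on HFD, against 4.56, 5.33, 4.28, 4.49 and 4.23 CPM on LFD. The lowest HFD library held more than 2 times the level of the highest LFD library, and the log2 fold change was 1.81 ± 0.15 (edgeR adjusted p 7.5e-07). In the second set it had 9.98, 11, 15 and 13.1 CPM on HFD, against 4.04, 5.25, 4.94 and 2.27 CPM on LFD (log2 fold change 1.42 ± 0.25, edgeR adjusted p 0.0017). In 129 eWAT it had 4.62, 4.75, 3.86 and 3.69 CPM on HFD, against 3.74, 2.81, 3.59 and 3.66 CPM on LFD (0.28 ± 0.21, edgeR adjusted p 0.36). The response in 129 minus that in B6 was -1.18 ± 0.31 (edgeR adjusted p 0.0069). In B6 iWAT the log2 fold change was 0.27 ± 0.20 (edgeR adjusted p 0.36).

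Rarres2 was lower on HFD in the first set, with 245, 375, 387, 260.3 and 174 CPM against 478, 468, 509, 368 and 403 CPM on LFD. The groups overlapped at 2 HFD libraries, and the log2 fold change was -0.64 ± 0.19 (edgeR adjusted p 0.012). In the second set, HFD libraries were spread from 48.4 to 166 CPM, against 139 to 196 CPM on LFD. That difference, -0.79 ± 0.33, missed the threshold (edgeR adjusted p 0.072) and passed it with DESeq2 (adjusted p 0.0495) and, at -1.13, without HFD control replicate 1 (edgeR adjusted p 0.0036, against 0.0036 to 0.18 over the libraries left out). In 129 eWAT the log2 fold change was 0.01 ± 0.13, and in B6 iWAT -0.02 ± 0.13. The strain difference in diet response was 0.76 ± 0.38 (edgeR adjusted p 0.12), and 1.13 without the same library (edgeR adjusted p 0.0042). Gpr1 did not pass the filter in the first set. Its log2 fold changes were -0.69 ± 0.28 in the second set, -0.43 ± 0.33 in 129 eWAT and -0.50 ± 0.24 in B6 iWAT (edgeR adjusted p 0.069, 0.38 and 0.16).

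These counts stand against wide backgrounds. HFD changed 3 of 3 tested members in the first set, where 58% of all genes passed, and 2 of 4 in the second set, where 50% passed. It changed 0 of 4 in 129 eWAT, where 21.2% passed, and 0 of 4 in B6 iWAT, where 22.7% passed. The LFD controls of B6 iWAT are those with the high muscle markers, whose part in that comparison was not tested. The second-set diet comparison and that of 129 eWAT ran across 2 lanes, with HFD on one and LFD on another, while the first set was on 1 lane.

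**Figure D2:**
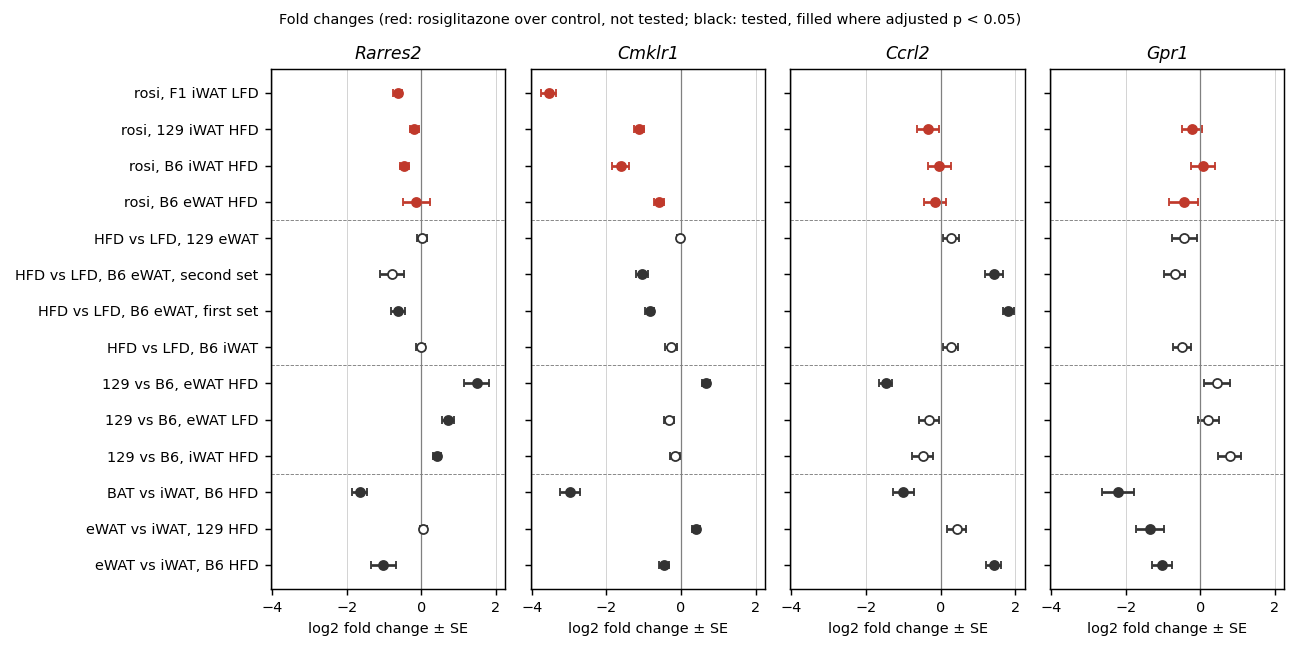
Log2 fold changes with SE of the 4 genes in 14 comparisons, the first-named group or treatment of each row over the second, with rosiglitazone over control. Red points are rosiglitazone contrasts, which were not tested; black points are filled where edgeR's adjusted p was under 0.05, and a missing point did not pass the low-count filter. Cmklr1 lies left of 0 in every rosiglitazone contrast and in both B6 eWAT diet contrasts, where Ccrl2 lies right of 0 at 1.42 and 1.81.

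The B6 eWAT changes on HFD ran with large marker shifts. Summed macrophage markers were 5916 to 11904 CPM on HFD and 1160 to 1601 CPM on LFD in the first set, and 11 of 12 rose and 1 fell. In the second set, they were 4414 to 13445 CPM on HFD and 868 to 1733 CPM on LFD. Adipocyte markers summed to 13622 to 24271 CPM on HFD against 28792 to 32209 CPM on LFD in the first set, where 8 of 10 fell and 1 rose. Endothelial markers fell in 10 of 10 cases in both sets. Fibroblast and progenitor markers rose in 6 of 10 and fell in 1 in the first set (8564 to 14516 CPM on HFD, 3525 to 3865 CPM on LFD), and rose in 7 of 10 in the second (7381 to 11382 against 2035 to 3687 CPM). Mesothelial markers fell in 8 of 8 in the first set (145 to 320.3 against 374 to 565 CPM) and in 2 of 8 in the second. In 129 eWAT, macrophage markers summed to 1239 to 1576 CPM on HFD and 1081 to 1548 CPM on LFD.

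Relative to the summed adipocyte markers, Cmklr1 on HFD was 0.902 times its LFD value in the first set and 0.851 times in the second, with overlap in both. Rarres2 was at 1.01 and 0.896 times, also with overlap. Relative to macrophage markers, Cmklr1 was at 0.0952 and 0.0744 times and Rarres2 at 0.114 and 0.107 times, with no overlap. Relative to endothelial markers, Cmklr1 was at 1.19 and 1.81 times, with overlap, and Rarres2 at 1.32 times with overlap and 1.88 times without. Ccrl2 on the adipocyte scale was 5.95 and 4.77 times its LFD value, with no overlap, and relative to macrophage markers it was 0.557 and 0.403 times, again with no overlap. Beyond these ratios, the part of cell composition in the diet differences was not tested.

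**Figure D3:**
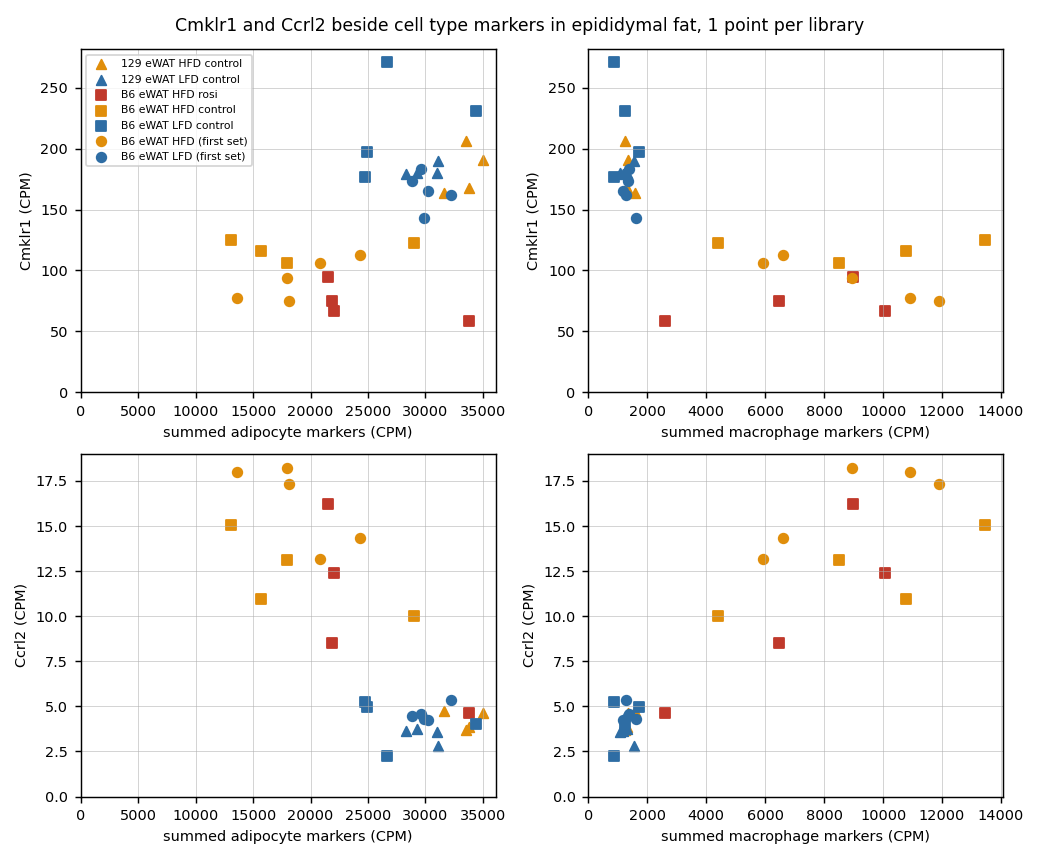
Cmklr1 (upper row) and Ccrl2 (lower row) in CPM against the summed adipocyte (left) and macrophage (right) markers in the eWAT libraries, 1 point per library; circles are the first B6 set, squares the second and triangles 129. The 129 HFD libraries lie among the LFD libraries for Cmklr1, Ccrl2 and macrophage markers, and the B6 HFD libraries without rosiglitazone have at least 4414 CPM of macrophage markers.

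The listed pathway genes moved in B6 eWAT as well. On HFD in the first set, where 58% of all genes passed, 5 of 7 tested proteases rose and 1 fell, with a median log2 fold change of 1.95 against -0.00 over all genes tested. Ctss, cathepsin S, averaged 1553 ± 509 CPM on HFD and 67.9 ± 8.19 CPM on LFD, and Ctsk 396 ± 182 and 15 ± 2.76 CPM (edgeR adjusted p 5.3e-08 and 1.4e-07). Prtn3, the neutrophil proteinase 3, fell. Of 10 related receptors, 6 rose and 1 fell, among them C3ar1, the complement C3a receptor, at 297 ± 111 CPM on HFD against 14.5 ± 2.37 CPM on LFD. Ackr4, a chemokine scavenger, was the receptor that fell. Of 9 transcription factors, 4 fell and 1 rose. Cebpa, an adipogenic factor, averaged 176 ± 38.6 CPM on HFD and 413 ± 25.5 CPM on LFD, and Rxra, the partner of PPAR gamma, 125 ± 28.4 and 236 ± 25.7 CPM. Among 13 signalling genes 9 rose and 4 fell. In the second set, where 50% of all genes passed, the counts were 5 and 1 of 7, 6 and 1 of 10, 1 and 5 of 9, and 7 and 3 of 13, each as higher and lower. In 129 eWAT, where 21.2% passed, they were 1 and 1 of 6 proteases, 1 and 0 of 9 receptors, 1 and 2 of 9 factors, and 5 and 3 of 13 signalling genes. In B6 iWAT, where 22.7% passed, 1 protease rose and 2 fell of 7, and 1 receptor rose of 10.

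Between strains, Rarres2 was higher in 129 than in B6 in iWAT and, against the second B6 set, in eWAT on both diets. In iWAT on HFD, Rarres2 averaged 259.8 ± 17.7 CPM in 129 and 192 ± 26.9 CPM in B6 (SD, n = 4 each), a log2 fold change of 0.42 ± 0.11 (edgeR adjusted p 0.018). In eWAT on LFD the averages were 265 ± 58.8 CPM in 129 and 156 ± 26.8 CPM in B6 (0.71 ± 0.16, edgeR adjusted p 0.0056). In eWAT on HFD they were 271 ± 26.6 CPM in 129 and 99.3 ± 50.8 CPM in B6 (1.48 ± 0.34, edgeR adjusted p 0.0056). The groups did not overlap in any of the 3. The first B6 eWAT set did not show this: its Rarres2 averaged 445 ± 57.9 CPM on LFD and 288 ± 91.0 CPM on HFD, above the 129 means. That difference was not tested, and the first set was on another lane than either 129 group. Reads were aligned to mm9, a C57BL/6J sequence, and the part of strain-specific alignment was not tested. Both eWAT comparisons were on a single lane each, and the iWAT comparison was across 2.

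The receptor levels in CPM differed between strains mainly in eWAT on HFD. There Cmklr1 was higher in 129, at 182 ± 20.2 CPM against 118 ± 8.41 CPM in B6 (0.67 ± 0.10, edgeR adjusted p 0.00075). Ccrl2 was lower in 129, at 4.23 ± 0.533 CPM against 12.3 ± 2.25 CPM in B6 (-1.48 ± 0.17, edgeR adjusted p 0.00019). Gpr1 did not pass there (0.45 ± 0.35, edgeR adjusted p 0.31). On LFD in eWAT, Cmklr1 gave -0.32 ± 0.13 (edgeR adjusted p 0.081; -0.40 and 0.042 without B6 LFD control replicate 2) and Ccrl2 -0.31 ± 0.27 (edgeR adjusted p 0.41). In iWAT on HFD, Cmklr1 gave -0.17 ± 0.14 (edgeR adjusted p 0.38) and Ccrl2 -0.48 ± 0.27 (edgeR adjusted p 0.22). In iWAT, Gpr1 had 10.4, 4.74, 5.41 and 5.03 CPM in 129 against 4.69, 3.66, 4.02 and 2.20 CPM in B6 (0.78 ± 0.31, edgeR adjusted p 0.086, and 0.042 with a replicate block), and these ranges did not overlap. In all, 1 of 4 members passed in iWAT on HFD, 1 of 4 in eWAT on LFD and 3 of 4 in eWAT on HFD, against 27.8%, 32.3% and 54.2% of all genes. Of 12 macrophage markers, 11 were lower in 129 eWAT on HFD and 9 in 129 iWAT on HFD, while 1 was lower and 1 higher in eWAT on LFD. In eWAT on HFD, Cmklr1 in 129 was 0.8 times its B6 value relative to adipocyte markers and 0.773 times relative to endothelial markers, with overlap. Relative to macrophage markers it was 8.93 times, without overlap. Ccrl2 was 0.173, 0.167 and 2.08 times on these scales in the same order, each without overlap. The part of cell composition in the strain differences was not tested beyond these ratios.

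In eWAT on HFD, 54.2% of all genes passed between strains. Among the pathway lists there, 6 of 7 proteases and 6 of 10 related receptors were lower in 129 and 0 were higher. Ctsk averaged 18.1 ± 3.08 CPM in 129 and 479 ± 177 CPM in B6, and C5ar2, a non-classical complement receptor, 1.09 ± 0.654 and 24.3 ± 5.95 CPM. Of 9 transcription factors, 4 were higher in 129 and 1 lower. Cebpa averaged 679 ± 38.2 CPM in 129 and 239 ± 51.2 CPM in B6, and Rarb, a retinoic acid receptor, 14.9 ± 1.86 and 4.85 ± 0.923 CPM. Cebpa and Rarb were also the 2 of 9 factors higher in 129 iWAT, where 27.8% of all genes passed.

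Between depots on HFD, all 4 genes were lower in CPM in BAT than in iWAT of B6, where 65.3% of all genes passed. Cmklr1 had 12.2, 12.6, 17.9 and 32.7 CPM in BAT, against 119, 188, 145 and 159.6 CPM in iWAT, a log2 fold change of -2.97 ± 0.27 (edgeR adjusted p 3.9e-06). Rarres2 had 48.1, 43.7, 57.4 and 88.6 CPM in BAT, against 192, 153, 209 and 212 CPM in iWAT (-1.65 ± 0.20, edgeR adjusted p 3.5e-05). Neither pair of ranges overlapped. Gpr1 had 0.264, 1.17, 0.801 and 0.784 CPM in BAT, from 1 to 4 counts, against 4.69, 3.66, 4.02 and 2.20 CPM in iWAT (-2.21 ± 0.42, edgeR adjusted p 0.00077). The BAT values of Gpr1 are near the level that 3 counts give, 0.314 to 0.968 CPM across libraries. Ccrl2 averaged 2.08 ± 0.648 CPM in BAT and 4.31 ± 0.828 CPM in iWAT (-1.0 ± 0.28, edgeR adjusted p 0.0090). Of 12 macrophage markers, 10 were lower in BAT, as were 6 of 10 adipocyte markers, with 3 higher. Of the listed proteases 6 of 7 were lower, and Cpn2 was higher, at 113 ± 17.5 CPM in BAT and 0.65 ± 0.154 CPM in iWAT. Scaled to adipocyte markers, Cmklr1 in BAT was 0.223 times its iWAT value and Gpr1 0.382 times, both without overlap. On that scale Rarres2 at 0.562 and Ccrl2 at 0.874 times overlapped. On the macrophage scale all 4 overlapped, at 0.458 (Cmklr1), 1.05 (Gpr1), 1.26 (Rarres2) and 1.88 times (Ccrl2). On the endothelial scale none did, at 0.124, 0.215, 0.316 and 0.492 times in that order. The part of cell composition here was not tested beyond these ratios. BAT and iWAT were on different lanes.

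In eWAT against iWAT, the strains gave different pictures for Cmklr1 in CPM. In B6, it was lower in eWAT (118 ± 8.41 CPM against 153 ± 28.7 CPM in iWAT, -0.46 ± 0.14, edgeR adjusted p 0.025), and in 129 it was higher (182 ± 20.2 against 137 ± 16.1 CPM, 0.39 ± 0.10, edgeR adjusted p 0.024). The difference between the strains was not tested. The B6 call was lost, at -0.46 to -0.35, without eWAT replicate 2 or 4 or iWAT replicate 2 or 4 (edgeR adjusted p 0.059 to 0.069), and with a replicate block (adjusted p 0.053). The 129 call was lost, at 0.33 to 0.37, without eWAT replicate 1 or 4 or iWAT replicate 2 (edgeR adjusted p 0.055 to 0.08). Gpr1 was lower in eWAT in both strains, at 1.87 ± 0.196 against 3.64 ± 1.05 CPM in B6 (-1.02 ± 0.26, edgeR adjusted p 0.012) and 2.52 ± 1.34 against 6.41 ± 2.71 CPM in 129 (-1.35 ± 0.37, edgeR adjusted p 0.026), without overlap in either. The 129 call was lost, at -1.38 to -1.04, without eWAT replicate 1, 2 or 3 or iWAT replicate 1 (edgeR adjusted p 0.06 to 0.074). Ccrl2 was higher in eWAT of B6 (12.3 ± 2.25 against 4.31 ± 0.828 CPM, 1.42 ± 0.19, edgeR adjusted p 0.0014) and gave 0.43 ± 0.25 in 129 (edgeR adjusted p 0.26). Rarres2 was lower in eWAT of B6 (-1.02 ± 0.34, edgeR adjusted p 0.035) and gave 0.05 ± 0.09 in 129 (edgeR adjusted p 0.74). The B6 call was lost, at -1.07 to -0.91, without eWAT replicate 2 or 4 or iWAT replicate 1, 3 or 4 (edgeR adjusted p 0.064 to 0.088). In B6, 4 of 4 members passed, against 48.9% of all genes, and in 129 it was 2 of 4, against 17.8%. In B6, 11 of 12 macrophage markers were higher in eWAT and 10 of 10 endothelial markers lower. Relative to adipocyte markers, Cmklr1 in eWAT was 1.63 times its iWAT value in B6, with overlap, and 1.38 times in 129, without. Relative to endothelial markers it was 2.42 and 1.36 times, both without overlap. On the macrophage scale it was 0.159 times in B6, without overlap, and 0.932 times in 129, with overlap. For B6 on the adipocyte scale, Rarres2 was 0.971 and Gpr1 1.10 times, both with overlap, and Ccrl2 6.25 times without. Against macrophage markers they were 0.132, 0.105 and 0.573 times, and only Ccrl2 overlapped. Against endothelial markers they were 1.41, 1.63 and 9.40 times, and only Ccrl2 did not overlap. For 129, Gpr1 was 0.407, 0.294 and 0.398 times on these scales in the same order, overlapping on the adipocyte scale alone. The part of cell composition in the depot differences was not tested beyond these ratios. In both strains the depots were on different lanes, so depot and lane cannot be told apart.

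The order of levels sets side by side groups of different lanes and read assignment. Over all 15 groups, the mean of Cmklr1 ran from 13.1 CPM in F1 iWAT with rosiglitazone to 219 CPM in B6 eWAT LFD control, a 16.7-fold range. The next lowest were BAT at 18.8, B6 iWAT with rosiglitazone at 50.3, 129 iWAT with rosiglitazone at 63.7 and B6 eWAT with rosiglitazone at 73.6 CPM. So all 4 rosiglitazone groups and BAT stood under the 10 other groups, the lowest of which was B6 eWAT HFD of the first set at 93.1 CPM. Of the 14 steps between neighbours in this order, the ranges were apart at 1, between B6 iWAT with rosiglitazone and BAT. Rarres2 ran from 59.5 CPM in BAT to 445 CPM in B6 eWAT LFD of the first set, a 7.49-fold range. Ccrl2 ran from 2.04 CPM in F1 iWAT with rosiglitazone to 16.2 CPM in B6 eWAT HFD of the first set (7.93-fold), and the 3 groups on top were the B6 eWAT HFD groups. Gpr1 ran from 0.756 CPM in BAT to 6.41 CPM in 129 iWAT HFD control (8.48-fold), and the 5 groups on top were the iWAT groups of 129 and B6. For Rarres2, Ccrl2 and Gpr1, every step between neighbours had overlapping ranges.

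**Figure D4:**
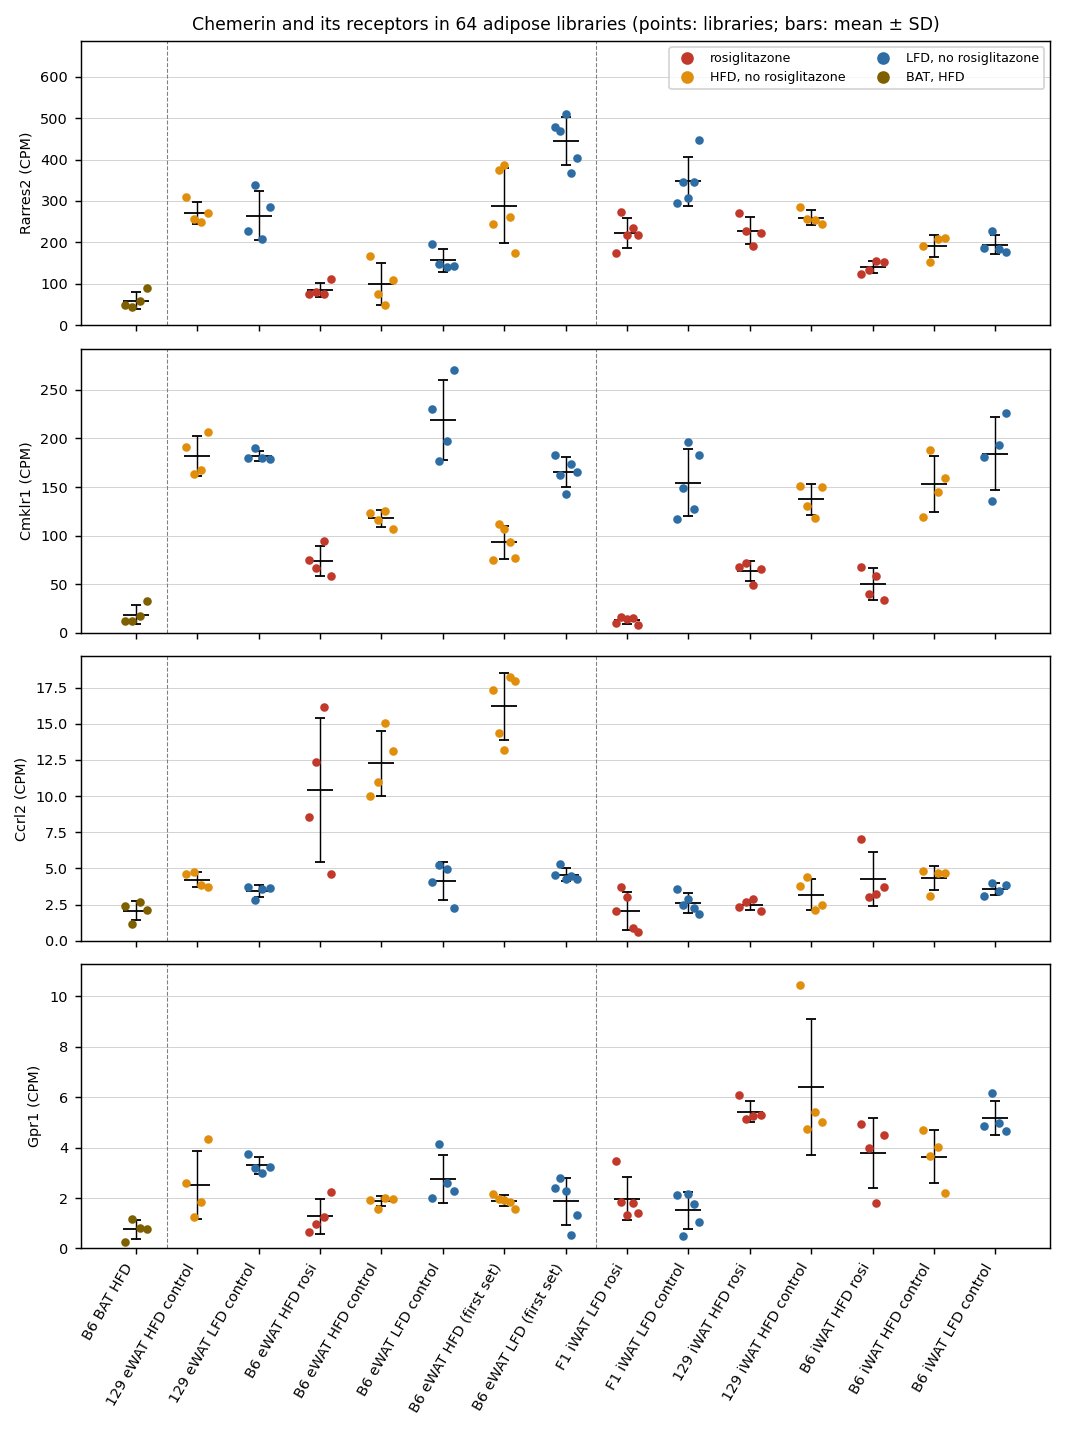
CPM of Rarres2, Cmklr1, Ccrl2 and Gpr1 in every library of the 15 groups, with mean and SD; red is rosiglitazone, orange HFD, blue LFD and brown BAT. All axes start at 0. The red groups and BAT are the low ones for Cmklr1, and the 3 B6 eWAT HFD groups are the high ones for Ccrl2.

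The genes whose group means followed each member most closely were ranked by Pearson's r of log2(CPM + 1) over the 15 groups, among about 11184 genes with a mean of at least 5 CPM. For Cmklr1 they were Gmds (r = 0.948), Maml2 (0.946) and Igfbp4 (0.938). For Rarres2 they were Cdc23 (0.926), Nme7 (0.902) and Tsr2 (0.899). For Ccrl2 they were Cyth4 (0.994), Ccdc109b (0.990) and Ptafr (0.989). For Gpr1 they were Arrdc2 (0.921), Zfp949 (0.875) and Spats2l (0.870). Ranked by Spearman's rho instead, the 3 genes named for Cmklr1 stood at places 75, 45 and 112, and those for Gpr1 at 3, 18 and 65. The choice for these members thus depends on the measure. Those for Rarres2 stood at 4, 1 and 6, and those for Ccrl2 at 2, 7 and 7. The groups share strains, depots and lanes, so these values are descriptions. Among the members, the highest r was 0.451, between Rarres2 and Cmklr1, and Ccrl2 gave 0.293 with Cmklr1 and -0.15 with Rarres2.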

How the data were processed

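Per the labels, total RNA was depleted of ribosomal RNA with Ribo-Zero gold and made into TruSeq libraries. The deposited files hold raw counts of reads per gene symbol, 1 library each, with 24328 genes and 5 tallies that were kept out of sizes and tests. Per the submitters' processing notes, reads were aligned to mm9 with TopHat2 2.1.0 and counted with HTSeq. The strand setting and annotation are not given in the sources used here. In the GRCm38 annotation Rarres2 overlaps Lrrc61 and Gpr1 overlaps Zdbf2, so reads of these pairs may not be told apart. Libraries of F1 and the first B6 eWAT set had 64.3 to 70.6% of reads outside any feature and the others 29.3 to 49.1%, and 0 pairs of libraries were identical.

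CPM used TMM sizes over all 64 libraries and are given as mean ± SD. edgeR 4.0.16 in R 4.3.3 gave a 2-sided quasi-likelihood test for each comparison, fitted on the compared groups alone, with TMM, filterByExpr (minimum count 10, minimum total 15) and Benjamini-Hochberg adjustment over all genes tested, at a threshold of 0.05. Log2 fold changes are ± SE. The code was tested on simulated data. Alternatives were DESeq2 1.42.0, no filter, the replicate number as a block, library totals without TMM and leaving out each library. Samples share replicate numbers, and these deviated together only for BAT and iWAT of B6 on HFD (r 0.22 to 0.33 over 4 pairs); there the blocked fit changed no call of a member. Members and lists were chosen with earlier results of these data known, and the scaling to marker sums was chosen after the values were seen. Genes other than members were named by lowest adjusted p, up to 2 per list and direction, except 1 that is not reported here. Groups came from the labels' strain, tissue, diet and agent. Counting error alone sets the level of 3 counts.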

Additional observations from a re-analysis of the deposited data

Results flagged for a closer look

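Single libraries stood apart from the rest of their group in 8 of the 60 combinations of gene and group looked at, where chance flags about 1 in 20. For Rarres2 these were B6 eWAT LFD control replicate 1, at 196 CPM, and B6 eWAT HFD rosiglitazone replicate 4, at 110.2 CPM, both above the others. For Cmklr1 it was 129 eWAT LFD control replicate 2, at 190.0 CPM, above a tight group. For Ccrl2, B6 iWAT HFD control replicate 2 (3.08 CPM) and 129 eWAT LFD control replicate 2 (2.81 CPM) lay below the others. For Gpr1, replicate 1 lay above the others in 129 iWAT HFD rosiglitazone (6.07 CPM), 129 iWAT HFD control (10.4 CPM) and F1 iWAT LFD rosiglitazone (3.48 CPM).

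The response to HFD in eWAT differed between 129 and B6 for 2 of 4 members by the test of the difference itself. That test called 40.2% of all genes. The difference was 0.98 for Cmklr1 and -1.18 for Ccrl2, as the log2 fold change in 129 minus that in B6.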

How the results depend on the processing

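Group means in CPM kept within 1 SD without TMM in 60 of 60 cases, and without the filter on low counts no result moved. With a replicate block, whose numbers pair samples in the BAT comparison alone, Cmklr1 in eWAT against iWAT of B6 was -0.44 (edgeR adjusted p 0.053), Rarres2 on HFD in the second set -0.92 (0.018) and Gpr1 in 129 against B6 iWAT 0.77 (0.042); it changed no other call of a member. It called 1028 genes for rosiglitazone in B6 iWAT and 4 in 129 iWAT, against 1689 and 14. DESeq2 called 188 in 129 iWAT and 30 in B6 eWAT, gave Rarres2 on HFD -0.78 in the second set (adjusted p 0.0495) and -0.00045 in 129 eWAT, where edgeR gave 0.01. The cause was not tested.

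With each library left out, the genes called ran from 929 to 2542 for rosiglitazone in B6 iWAT, 0 to 40 in 129 iWAT, 0 to 1 in B6 eWAT, and 1503 to 2634 for eWAT against iWAT in 129. Log2 fold changes ran from -0.10 to 0.025 for Cmklr1 on HFD in 129 eWAT, -0.40 to -0.17 in 129 against B6 eWAT on LFD (lowest adjusted p 0.042), -0.56 to -0.35 in eWAT against iWAT of B6 and 0.33 to 0.44 in 129 (highest 0.069 and 0.08). For Rarres2 they ran from -0.071 to 0.074 on HFD in B6 iWAT, -1.13 to -0.53 in the second set of eWAT, -0.10 to 0.14 in 129 eWAT, -1.40 to -0.80 in eWAT against iWAT of B6, -0.022 to 0.097 in 129, and 0.53 to 1.13 for the strain difference in diet response. For Gpr1 they ran from -1.73 to -1.04 in eWAT against iWAT of 129 (highest adjusted p 0.074), -0.15 to 0.46 for the strain difference in diet response, -0.92 to -0.25 on rosiglitazone in B6 eWAT, and -1.0 to -0.35 for that response minus the one in iWAT. The rosiglitazone response of Ccrl2 in 129 minus B6 iWAT ran from -0.50 to 0.015. Counts of 2 to 112 for Ccrl2 and 1 to 55 for Gpr1 limit what their comparisons can show.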

Other observations

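Rarres2 differed between the 2 sets of B6 eWAT libraries of the same diet label. It averaged 445 ± 57.9 CPM in the first set on LFD and 156 ± 26.8 CPM in the second, and 288 ± 91.0 CPM in the first set on HFD and 99.3 ± 50.8 CPM in the second (SD). Both differences were without overlap, at 2.85 and 2.90 times. Cmklr1, Ccrl2 and Gpr1 overlapped between the sets on both diets, at 0.676 to 1.32 times. The sets were on different lanes, and their reads were assigned differently: reads in no gene feature were 64.3 to 67.7% in the first set and 33.9 to 49.1% in the second, and ambiguous reads 0.203 to 0.269% and 0.672 to 0.903%. Rarres2 overlaps Lrrc61, and the strand setting is not known. Set, lane and read assignment cannot be told apart.

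In B6 eWAT on HFD with rosiglitazone, replicate 4 had the lowest Ccrl2 (4.64 CPM) and Cmklr1 (58.2 CPM) of its group and the highest Rarres2 (110.2 CPM) and Gpr1 (2.24 CPM). Its macrophage markers summed to 2615 CPM, the lowest of the group, and its adipocyte markers to 33776 CPM, the highest. It also had the most genes detected of all 64 libraries (21330, against 16781 to 17085 in the rest of its group), 44.6% of reads in no feature against 30.5 to 35.4%, and the highest share of Rn45s of all 64, 1.89%. With each library left out in turn, Cmklr1 in this contrast stayed between -0.72 and -0.54 on the log2 scale.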
